A study of Mus musculus with 8 samples.

Results

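The genes described here are 10 transcriptional targets of the tumour suppressor p53, read as a possible trace of ribosomal stress in mouse brain. They were taken by name from the gene table, and all 10 of 10 (Cdkn1a, Mdm2, Ccng1, Zmat3, Sesn1, Perp, Bax, Trp53inp1, Phlda3 and Eda2r) were found among its 54532 genes. RNA from whole brain of male mice of 3 months was sequenced in 4 wild-type (WT) libraries and 4 libraries whose label is Nsun5-KO, a loss of the RNA methyltransferase gene Nsun5. The labels describe the mice of both genotypes as littermates, 5 of each, of which 4 libraries each were analysed here. The labels name no strain, knockout allele or promoter, and both genotypes were anaesthetised with pentobarbital before the brain was taken. The series title links Nsun5 loss to reduced myelin and less sleep. Neither the title nor the labels name a question about p53.

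Nsun5 places a methyl group on a cytosine of the large ribosomal RNA. When ribosome assembly is disturbed, free ribosomal proteins Rpl5 and Rpl11, held with the 5S ribosomal RNA, bind the ubiquitin ligase Mdm2 and keep it from p53. The p53 protein then accumulates and switches on its targets, which stop the cell cycle, repair DNA, limit growth or start cell death. Because p53 is controlled mainly as a protein, the RNA of its targets is the usual transcriptional measure of its activity.

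The p53 protein binds a pair of short half-sites in DNA, and its binding consensus (the p53 half-site, which reads the same on both strands) was searched in promoter windows of RefSeq on GRCm38.p6, from 250 bases before to 50 after an annotated start. Windows existed for 7 of the 10 genes. A half-site was in 5 of their 9 windows, against 8.36% of 32851 mouse windows of the same length. A pair of half-sites with at most 13 bases between them was in 1 of the 9, a window of Cdkn1a, against 0.0731% of all windows. That window is shown because it carries the only pair, with the half-sites in capitals (chr17:29090729-29091028, plus strand).

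Cdkn1a: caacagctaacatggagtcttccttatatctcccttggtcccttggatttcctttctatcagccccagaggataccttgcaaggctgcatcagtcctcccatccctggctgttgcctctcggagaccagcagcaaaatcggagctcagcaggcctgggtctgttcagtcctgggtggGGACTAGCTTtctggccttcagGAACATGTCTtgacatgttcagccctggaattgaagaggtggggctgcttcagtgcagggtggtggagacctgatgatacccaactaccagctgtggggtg

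The second capital run lies at -51 to -42 from this start and 2841 bases before the other annotated start of Cdkn1a. The 10 bases that follow it, tgacatgttc, differ from the consensus in 1 base, so that the stretch forms a nearly complete pair with no gap. The other half-sites are printed with 10 bases on each side, half-site in capitals. They lie before the annotated start in Mdm2 (chr10:117710925-117710954, minus strand), Ccng1 (chr11:40755452-40755481, minus strand) and Bax (chr7:45467080-45467109, minus strand), and before an internal start within the gene in Sesn1 (chr10:41887256-41887285, plus strand).
Mdm2: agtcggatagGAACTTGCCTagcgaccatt
Ccng1: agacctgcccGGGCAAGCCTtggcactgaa
Bax: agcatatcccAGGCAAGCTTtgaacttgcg
Sesn1: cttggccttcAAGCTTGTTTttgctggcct

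These matches describe the letters only, and the windows of Phlda3 and Eda2r held none.

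The 8 libraries held 15642086 to 17829523 counts. Levels are given in CPM, counts relative to the scaled library size. Nsun5 itself had 82 to 109 counts in WT and 83 to 124 counts in the other group (log2 fold change 0.13, SE 0.15, edgeR adjusted p = 0.817), so its RNA did not bear out the label, and directions below are those of the libraries labelled Nsun5-KO. WT replicates 1 and 2 stood apart on the first principal component (-29.7 and -36, against 1.7 to 23.8), and 7.27% and 7.68% of their counts were mitochondrial, against 5.52% to 6.23% in the other 6. Neuronal and glial markers bore out brain tissue, which does not tell whole brain from a part of it. The cerebellar granule cell gene Gabra6 was at 0 to 1.92 CPM, and so did not bear out the cerebellum of a whole brain. Nothing in the labels says whether numbered libraries were prepared apart, and p-values measure the spread between these libraries.

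None of the p53 targets passed the test. Of the 10 genes, 9 had enough counts to be tested, and edgeR called 0 of them at an adjusted p below 0.05, as it did 0 of all 16062 genes (0%). DESeq2, which called 94 of 16121 genes (0.583%), and edgeR without the low-count filter, which called 68 of 28997 (0.235%), called 0 as well (DESeq2 gave Eda2r no adjusted p). At an unadjusted p below 0.05 edgeR had 2 of the 9, against 10.4% of all genes. One was higher in the libraries labelled Nsun5-KO (Zmat3; 5.30% of all genes) and 1 lower (Perp; 5.05%).

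Sizes were small. The 9 log2 fold changes ran from -0.40 to 0.39 with a median of 0.10, beside -0.005 over all genes tested. Values above WT were found for 7 of the 9, against 48.6% of all genes. Among the 7, Trp53inp1 and Phlda3 were each at 0.04 (SE 0.13 and 0.21). The genes were chosen with earlier results of these data known. The groups did not overlap in 2 of the 9, against 5.70% of all genes. Both of these (Zmat3 and Sesn1) were higher in the libraries labelled Nsun5-KO (2.99% of all genes) and 0 were lower (2.71%).

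**Figure D1:**
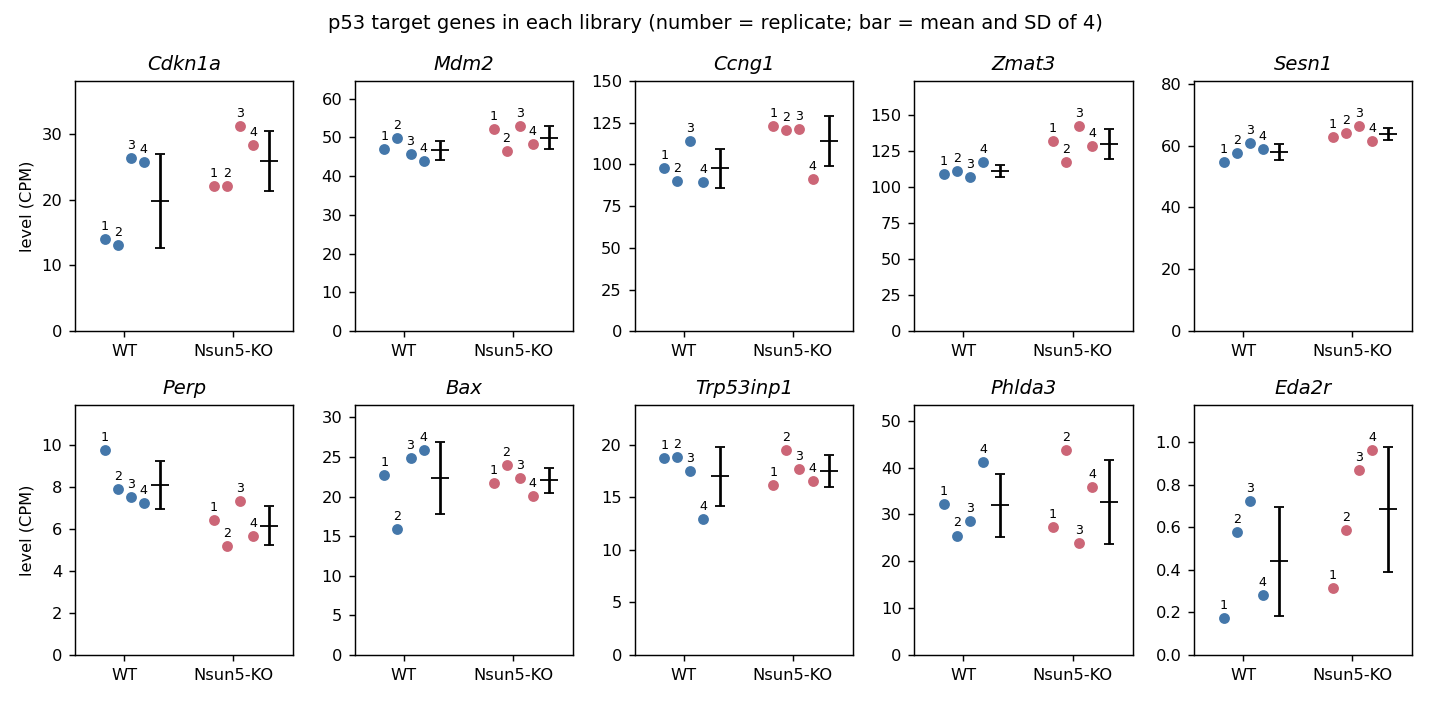
Level of each p53 target in CPM (y axis, from 0) in the 4 WT and 4 Nsun5-KO libraries, numbered by replicate, with the mean and SD of 4 as a bar beside them. Cdkn1a in WT replicates 1 and 2 (14.1 and 13.1) sits below the other 6 libraries, and only Zmat3 and Sesn1 have groups that do not overlap.

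Cdkn1a (ENSMUSG00000023067, chr17:29090976-29100727, mm10) encodes p21, the inhibitor of cyclin-dependent kinases that carries much of the growth arrest by p53. Its level was 14.1, 13.1, 26.4 and 25.7 CPM in WT replicates 1 to 4 and 22.1, 22.1, 31.2 and 28.3 CPM in replicates 1 to 4 labelled Nsun5-KO. WT replicates 1 and 2 were the lowest of the 8, while WT replicates 3 and 4 lay inside the range of the other group. The means were 19.8 ± 7.19 and 25.9 ± 4.53 CPM (SD, n = 4 each), a log2 fold change of 0.39 (SE 0.25, 95% interval -0.18 to 0.96, edgeR adjusted p = 0.645). With WT replicate 1 left out it was 0.25, with WT replicate 2 left out 0.23, and with both left out -0.01, the pair that also stood apart on the principal component and in mitochondrial share; the part of these in the Cdkn1a values was not tested. An unclassified transcript on the opposite strand shares 1046 bases with the gene but had at most 7 counts.

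Cyclin G1, encoded by Ccng1 (ENSMUSG00000020326, chr11:40748552-40755311), brings a phosphatase to Mdm2 and so acts back on p53. It was measured at 97.9, 89.8, 114 and 89.2 CPM in WT and at 123, 120.5, 121 and 91.3 CPM in the 4 Nsun5-KO-labelled libraries. Replicate 4 of the latter lay inside the WT range and the other 3 lay above it. The log2 fold change was 0.22 (95% interval -0.02 to 0.46, edgeR adjusted p = 0.514), and 0.31 (adjusted p = 0.307) without that replicate.

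Mdm2 (ENSMUSG00000020184, chr10:117688875-117710758) is at once the ligase that degrades p53 and a p53 target. WT libraries had 47.0, 49.9, 45.8 and 43.8 CPM and those labelled Nsun5-KO 52.1, 46.4, 52.9 and 48.4 CPM. The groups overlapped, with a log2 fold change of 0.10 (SE 0.07, 95% interval -0.06 to 0.26, edgeR adjusted p = 0.688). On the linear scale that interval runs from 0.956-fold to 1.20-fold, the range of differences these libraries allow for Mdm2. Without replicates 1 and 3 labelled Nsun5-KO, its 2 highest libraries, the value was 0.02.

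Zmat3 (ENSMUSG00000027663, chr3:32334792-32366014) encodes a zinc finger protein that binds RNA and acts on splicing and RNA stability downstream of p53. It was at 109, 111, 107 and 117 CPM in WT and at 132, 117, 142 and 128 CPM in the 4 Nsun5-KO-labelled libraries. The groups did not overlap, but the highest WT library and the lowest of the others were only 0.0103 CPM apart. The means were 111 ± 4.32 and 129.6 ± 10.4 CPM (SD, n = 4 each), and the log2 fold change was 0.22 (SE 0.07, 95% interval 0.07 to 0.38). That was the smallest p of the 10 genes (unadjusted edgeR p = 0.00919, adjusted p = 0.365; exact two-sided permutation p = 0.0286, the smallest that 4 against 4 can give). The value was 0.14 without replicates 1 and 3 labelled Nsun5-KO, which were its highest libraries.

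Sesn1 (ENSMUSG00000038332, chr10:41809935-41908424) encodes sestrin 1, which restrains the growth kinase complex mTORC1. WT libraries were at 54.7, 57.5, 61.0 and 58.8 CPM, and those labelled Nsun5-KO at 62.9, 64.0, 66.3 and 61.6 CPM. All 4 of the latter lay above all 4 WT libraries, by a gap of 0.592 CPM. The log2 fold change was 0.14 (SE 0.07, 95% interval -0.01 to 0.28, exact permutation p = 0.0286; edgeR adjusted p = 0.507). It was 0.09 without WT replicates 1 and 2.

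Perp (ENSMUSG00000019851, chr10:18845020-18857073) was the member with the most negative value. It encodes a membrane protein of desmosomes, the junctions between epithelial cells, that p53 induces during cell death. WT libraries had 9.77, 7.89, 7.50 and 7.26 CPM and those labelled Nsun5-KO 6.41, 5.20, 7.34 and 5.67 CPM. The groups overlapped through WT replicate 4 and replicate 3 labelled Nsun5-KO, and WT replicate 1 was the highest of the 8. The log2 fold change was -0.40 (SE 0.16, 95% interval -0.74 to -0.06, exact permutation p = 0.0571; edgeR adjusted p = 0.426). It was -0.26 without WT replicates 1 and 2 and -0.58 without replicates 1 and 3 labelled Nsun5-KO, each pair the highest of its group.

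Bax (ENSMUSG00000003873, chr7:45461697-45466898) forms the pore in the outer mitochondrial membrane that commits a cell to death. Its level was 22.7, 15.9, 24.9 and 25.9 CPM in WT and 21.7, 24.0, 22.4 and 20.1 CPM in the 4 Nsun5-KO-labelled libraries. WT replicate 2 was the lowest of the 8 and WT replicate 4 the highest, so the WT range enclosed the other group. The log2 fold change was -0.02 (95% interval -0.32 to 0.28, edgeR adjusted p = 0.970), and -0.21 without WT replicates 1 and 2.

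Trp53inp1 (ENSMUSG00000028211, chr4:11156431-11174379) encodes a stress protein that promotes cell death by p53 and takes part in autophagy. WT libraries were at 18.7, 18.8, 17.5 and 12.9 CPM and those labelled Nsun5-KO at 16.2, 19.5, 17.7 and 16.5 CPM. WT replicate 4 was low and the other 7 libraries lay together. Its log2 fold change was 0.04 (95% interval -0.24 to 0.32, edgeR adjusted p = 0.934) and turned to -0.07 without WT replicate 4.

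Phlda3 (ENSMUSG00000041801, chr1:135766119-135769136) encodes a lipid-binding protein that competes with the survival kinase Akt at the membrane. It was measured at 32.2, 25.5, 28.7 and 41.3 CPM in WT, and 27.3, 43.8, 23.9 and 35.9 CPM in the 4 Nsun5-KO-labelled libraries. The latter group held both the highest and the lowest library. The log2 fold change was 0.04 (SE 0.21, 95% interval -0.43 to 0.51, edgeR adjusted p = 0.969), and 0.32 without replicates 1 and 3 labelled Nsun5-KO. In those 4 libraries the myelin gene Mbp was at 2054, 2649, 1887 and 2549 CPM, so replicates 1 and 3 were low in both genes. In WT the order differed, since Mbp was highest in replicate 3 (3240.4 CPM) and Phlda3 in replicate 4. This pattern was noticed after the values were seen and was not tested.

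Eda2r (ENSMUSG00000034457, chrX:97333840-97377216), a receptor of the tumour necrosis factor family for the ligand ectodysplasin A2, was nearly silent. It had 3, 9, 12 and 5 counts in WT and 5, 10, 14 and 17 counts in the 4 Nsun5-KO-labelled libraries. The low-count filter left it out of the edgeR comparison used for the other 9. Without that filter edgeR put it at 0.65 (SE 0.54, adjusted p = 0.700). DESeq2 also gave 0.65.

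**Figure D2:**
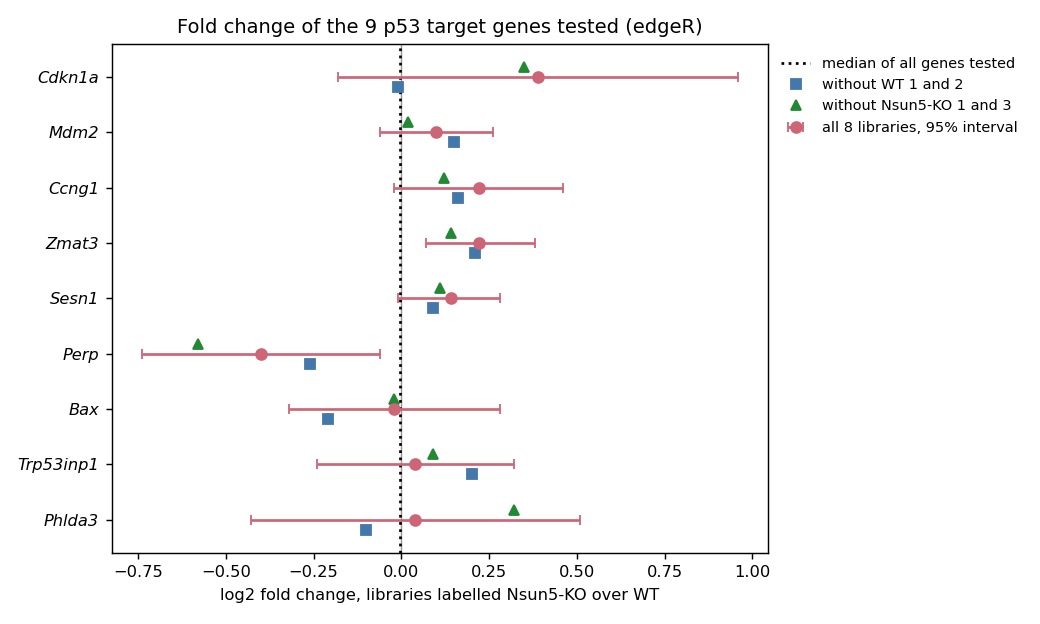
Log2 fold change (x axis; Nsun5-KO over WT) of the 9 p53 targets tested, with the 95% interval over all 8 libraries (circles), and the value without WT replicates 1 and 2 (squares) or without Nsun5-KO replicates 1 and 3 (triangles). The interval of Zmat3 (0.07 to 0.38) lies above 0 and that of Perp (-0.74 to -0.06) below it before adjustment, and Cdkn1a moves from 0.39 to -0.01 when WT replicates 1 and 2 are left out.

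Per gene length, in deposited FPKM (fragments divided by the length of the gene and the size of the library) over the 8 libraries, Ccng1 had the highest mean level (29.9), followed by Phlda3 (20.6), Sesn1 (15.2), Bax (14.0), Zmat3 (10.4), Mdm2 (9.43), Cdkn1a (6.39), Perp (3.62), Trp53inp1 (2.64) and Eda2r (0.0948). Neighbours in this order overlapped in their range over libraries, except Trp53inp1 and Eda2r.

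The targets did not reach their highest level in one and the same library. Relative to the WT mean, the median log2 level of the 9 genes was -0.03 to 0.06 in WT replicates and 0.12, 0.14, 0.18 and 0.05 in replicates 1 to 4 labelled Nsun5-KO. Replicate 3 of the latter was the highest of the 8 libraries for 4 of the genes (Cdkn1a, Mdm2, Zmat3 and Sesn1) and the lowest for Phlda3.

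**Figure D3:**
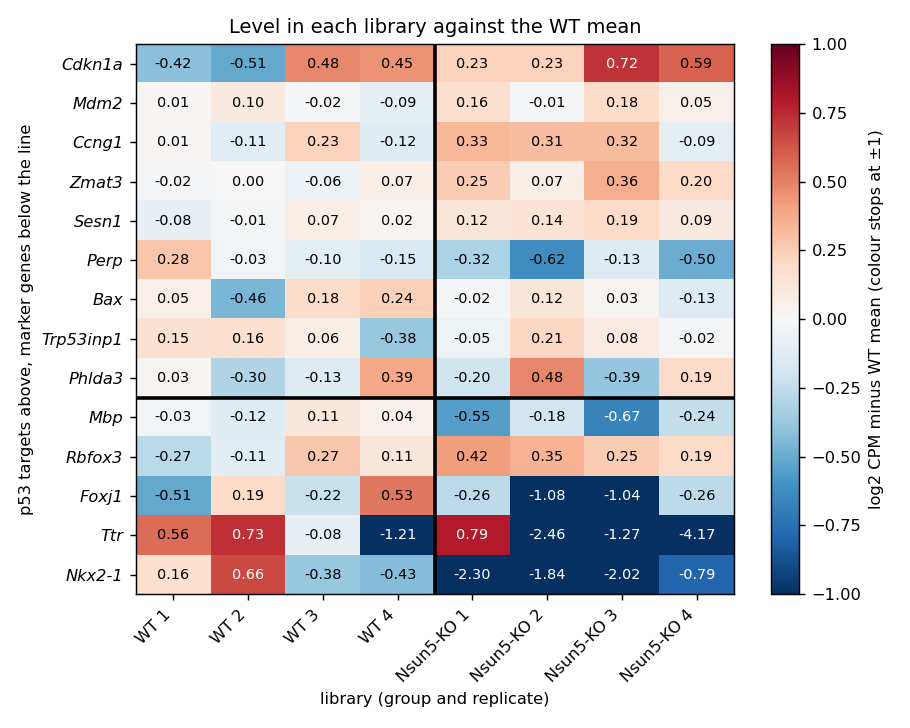
Log2 CPM minus the WT mean (colour and printed value) of the 9 p53 targets tested (above the line) and of 5 cell type marker genes (below it) in each library (columns). Cdkn1a is at -0.42 and -0.51 in WT replicates 1 and 2 and at 0.23 to 0.72 in the Nsun5-KO libraries, while the ventricular marker Ttr spans -4.17 to 0.79.

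Marker lists of cell types and brain regions were summed per library, with no test of the sums. Of their genes edgeR called 0, beside 0% of all genes. DESeq2 called 2 myelinating oligodendrocyte, 1 neuronal, 2 ependymal, 3 hypothalamic and 1 blood marker, against 0.583% of all genes. Of these only the neuronal marker was higher in the libraries labelled Nsun5-KO, and in the other marker lists DESeq2 called 0. The summed level of 8 neuronal markers was 6947 to 7171 CPM in WT and 7830.3 to 8372 CPM in the other group, where 6 of 8 were above WT, beside 48.6% of all genes. That of 10 myelinating oligodendrocyte markers was 7144 to 7777 and 4650.3 to 6403 CPM, with 10 of 10 below WT. The 6 ependymal markers summed to 22.1 to 36.8 and 10.6 to 20.1 CPM, and the 7 choroid plexus markers to 309.5 to 1174 and 51.9 to 1192 CPM. Of the 10 hypothalamic markers, 4 were at 0 in at least 1 library. The 10 summed to 123, 72.3, 63.3 and 8.05 CPM in WT replicates 1 to 4. In the other group they summed to 4.61 to 10.4 CPM, a range that held WT replicate 4. Hcrt was at 34.9 and 10.6 CPM in WT replicates 1 and 2, against at most 0.87 CPM elsewhere. Pmch was at 52.4 and 18 CPM there, against at most 1.06 CPM, while Avp was highest in WT replicate 3 (42.4 CPM). Hcrt, Pmch and Avp were named after their values were seen. Sums of astrocyte (3740.5 to 4373 and 4029 to 4611 CPM), microglia (316 to 336 and 303 to 324), endothelial (242 to 258 and 221 to 259.9), mural (197 to 231 and 193 to 237), precursor (271 to 294 and 212 to 272), cerebellar (10.5 to 30.5 and 7.04 to 17.9, with Gabra6 and Pcp2 at 0 in some libraries) and blood markers (64.8 to 156 and 68.0 to 222) overlapped between groups. The part of cell composition in the levels of the p53 targets was not tested, and in bulk tissue fewer cells of a type and less RNA per cell cannot be told apart.

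The 5 genes most like Cdkn1a across the 8 libraries, out of 14950 with a mean of at least 1 CPM, were Gadd45b, Ptpn1, Daglb, Dhx38 and Dnaja4 (Pearson r of log2 CPM 0.96 to 0.97). All 5 had their lowest levels in WT replicates 1 and 2: Gadd45b was at 13.3 and 13.5 CPM there and at 16.8 to 21.2 CPM in the other 6 libraries. The r is a description over libraries that share these low replicates. Leaving out both replicates put Gadd45b at a log2 fold change of -0.01 and Dnaja4 at -0.10.

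The wider p53 pathway was read from lists of related genes. Of 18 genes for p53, its family and its regulators, 16 were tested and edgeR called 0, beside 0% of all genes. Their median log2 fold change was -0.01. Trp53 itself, chosen after its values were seen, was at 14.8, 15.5, 17.5 and 14.2 CPM in WT and 15.7, 14.8, 16.1 and 19.0 CPM in the 4 Nsun5-KO-labelled libraries (log2 fold change 0.08, 95% interval -0.16 to 0.33). At an unadjusted p below 0.05, 0 were higher and 2 lower, or 2 of 16 against 10.4% of all genes. One was Trp73, the p53 relative that multiciliated ependymal cells need, at 1.86, 1.54, 1.63 and 1.87 CPM in WT and 0.88, 0.472, 1.06 and 0.454 CPM in the 4 Nsun5-KO-labelled libraries (log2 fold change -1.27, SE 0.33, edgeR adjusted p = 0.313). Its groups did not overlap, as in 1 of the 16 and in 2.71% of all genes with lower values. The ependymal marker Foxj1 stood at -0.67 in the same comparison. The other was the checkpoint kinase gene Chek2 (-0.78, edgeR adjusted p = 0.449). With WT replicate 1 left out the log2 fold change of Chek2 was -0.51, and with WT replicate 2 left out as well it was -0.23. Atr, a kinase that answers stalled replication, was at -0.24.

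Ribosomal proteins and nucleolar factors on the route to Mdm2 were read in the same way. All 18 were tested, edgeR and DESeq2 called 0 (0% and 0.583% of all genes), and the median was -0.05. Rpl5, which holds the 5S ribosomal RNA and binds Mdm2, was at 226, 239.5, 244 and 235 CPM in WT and 209, 209.9, 195 and 214 CPM in the 4 Nsun5-KO-labelled libraries. Its groups did not overlap (log2 fold change -0.19, SE 0.06, edgeR adjusted p = 0.367), as in 1 of the 18 and in 2.71% of all genes with lower values. Its partner Rpl11, named after its values were seen, was at 0.04. Npm1, the nucleolar chaperone nucleophosmin, was at -0.15 and Rpf2, which helps load the 5S particle, at -0.17. Ribosomal protein genes have many processed copies in the genome, so their counts are uncertain.

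Another 42 p53 targets fell into 5 groups by function. Of the 40 tested, edgeR and DESeq2 called 0 (0% and 0.583% of all genes). The values split into 21 above and 19 below WT, and the median was 0.03. At an unadjusted p below 0.05, 2 were higher and 1 lower, or 3 of 40 against 10.4% of all genes. Medians were 0.03 for 8 growth arrest genes, 0.06 for 10 cell death genes, 0.00 for 6 DNA repair genes, 0.06 for 11 metabolic and autophagy genes and -0.12 for 5 secreted or other products.

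**Figure D4:**
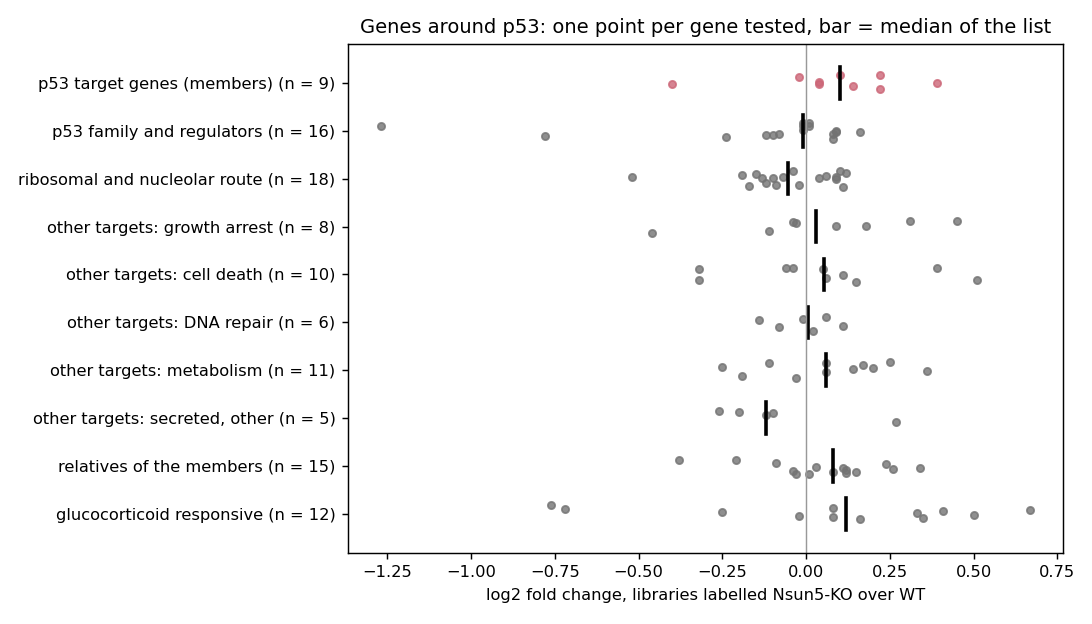
Log2 fold change (x axis; Nsun5-KO over WT) of each tested gene in the p53 target list and 9 related lists (rows, with the number tested), with the median as a black bar. Medians lie between -0.12 and 0.12, and the lowest point is Trp73 at -1.27.

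Among the arrest genes, Gadd45a, which binds the replication clamp, was at 0.45 (95% interval -0.13 to 1.04), Psrc1 at 0.31 and the kinase gene Plk2 at 0.09. Single libraries moved these values: the log2 fold change of Gadd45a was 0.71 without WT replicate 4 but 0.24 without replicate 1 labelled Nsun5-KO, and the log2 fold change of Psrc1 was 0.17 without replicate 3 labelled Nsun5-KO. The cell death genes Pmaip1 and Bbc3 encode Noxa and Puma, which release Bax from its inhibitors. Pmaip1 was at 0.51 (95% interval -0.13 to 1.14) and Bbc3 at -0.32 (-0.78 to 0.13), and the nuclease gene Aen was at 0.15. Leaving out WT replicate 1 put the log2 fold change of Pmaip1 at 0.30, and leaving out WT replicate 2 as well put it at 0.13. Without WT replicate 3 the log2 fold change of Bbc3 was -0.18. In DNA repair, Xpc was at -0.14, Ercc5 at -0.08 and the translesion polymerase gene Polh at 0.11.

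Among the metabolic targets, Ddit4, an inhibitor of mTORC1 like the sestrins, was at 36.5, 39.6, 50.6 and 54.5 CPM in WT and 52.9, 57.0, 62.9 and 60.0 CPM in the 4 Nsun5-KO-labelled libraries (log2 fold change 0.36, edgeR adjusted p = 0.385; 0.15 without WT replicates 1 and 2, which were its lowest). The lysosomal fucosidase gene Fuca1 was at 30.6, 29.0, 29.2 and 31.8 CPM against 28.2, 24.8, 23.8 and 24.7 CPM, without overlap (-0.25, adjusted p = 0.382). Lower values without overlap were found in 1 of the 40 other targets, near the 2.71% of all genes. Tigar, which turns sugar away from glycolysis, was at 0.17. Of the last group, Zfp365 was at 0.27 (edgeR adjusted p = 0.337), Ccnk at -0.10 and Rps27l at -0.12. Gdf15 and Sco2 were too sparse to be tested, Sco2 with 0 counts in all 8 libraries.

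Relatives of the 10 genes gave a median of 0.08 over 15 tested. Both edgeR and DESeq2 called 0 of them (0% and 0.583% of all genes). At an unadjusted p below 0.05 there were 3 positive values and 0 negative ones, against 5.30% and 5.05% of all genes. The 3 were Zmat4 (0.34, edgeR adjusted p = 0.357), Tnfrsf19 (0.24, 0.361), a receptor of the same family as Eda2r, and Zmat2 (0.15, 0.466). The other zinc finger relatives of Zmat3 were Zmat1 at -0.21 (95% interval -0.51 to 0.09) and Zmat5 at 0.26 (-0.09 to 0.61), both named after their values were seen. Differences between relatives were not tested.

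Glucocorticoid hormone also induces Cdkn1a and Ddit4 in brain, so 12 genes responsive to it were listed. Their median was 0.12 and edgeR called 0, beside 0% of all genes. An unadjusted p below 0.05 went with 4 positive values and with 1 negative value, against 5.30% and 5.05% of all genes. The negative one, named after its values were seen, was the lipid droplet gene Plin4 (-0.72, 95% interval -1.35 to -0.10). Sgk1, a kinase gene of that response, was at 58.2, 69.6, 84.7 and 92.8 CPM in WT and 108, 106, 134 and 136 CPM in the 4 Nsun5-KO-labelled libraries (log2 fold change 0.67, SE 0.15, edgeR adjusted p = 0.307), and DESeq2 called it (adjusted p = 0.00434). Without WT replicates 1 and 2, its 2 lowest libraries, Sgk1 was at 0.45. The leucine zipper gene Tsc22d3 was at 0.41 and the inhibitor of NF-kappaB Nfkbia at 0.33, both without overlap between groups, as was Klf9 at 0.35, chosen after its values were seen. With Sgk1 that made 4 of 12 that did not overlap and were higher, against 2.99% of all genes. The gap between groups was 5.22 CPM for Tsc22d3, 0.225 CPM for Nfkbia and 1.5 CPM for Klf9. WT replicates 1 and 2 were also the lowest libraries for Tsc22d3 and Klf9, but not for Nfkbia. Fkbp5, the chaperone gene most used as a readout of the hormone and named after its values were seen, was at -0.02 (95% interval -0.29 to 0.24). The part of this response in the Cdkn1a values was not tested.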

How the data were processed

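Bulk RNA sequencing of brain tissue was deposited as whole-number counts per gene, not normalised by the authors, and as FPKM, per the file headers. Reads were aligned with HISAT2 2.0.5 to mm10, per the submitters' processing notes; the counting tool and its annotation were not given in the sources used here. Libraries held 15642086 to 17829523 counts. The test was that of edgeR 4.0.16 under R 4.3.3 (filterByExpr by group, TMM scaling, robust quasi-likelihood F test, 4 against 4, no covariate), with Benjamini-Hochberg adjustment over all 16062 genes and a threshold of 0.05. CPM used the TMM library sizes. Single genes were also compared by exact two-sided permutation over 70 labelings. Symbols and coordinates came from the deposited table. The p53 targets and lists were chosen with earlier results of these data known. Named genes are the 10 targets, Nsun5, the 3 smallest p of each list, the first gene of each marker list and the 5 genes most like Cdkn1a. Outside this rule, and picked with their values in view, are Trp53, Rpl11, Zmat1, Zmat5, Klf9, Fkbp5, Plin4, Gdf15, Sco2, Pcp2, Hcrt, Pmch and Avp. Alternatives were DESeq2 1.42.0, limma 3.58.1 (voom with sample weights; log2 of FPKM plus 1 or plus 0.1), other scalings and filters, a replicate block and left-out libraries. The pipeline was tested on simulated data.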

Additional observations from a re-analysis of the deposited data

Results flagged for a closer look

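Levels were compared within each group of 4 libraries, and a library was listed when its distance to the nearest other library took up a larger share of the group's range than Dixon's 95% limit. Of 110 groups checked, 4 were listed, and chance lists about 1 in 20 groups. Ccng1 stood at 91.3 CPM in replicate 4 labelled Nsun5-KO, against 120.5 to 123 CPM in the other 3. Atr was at 11.8 CPM in WT replicate 1, against 14.6 to 15.1 CPM. Tnfrsf19 was at 78.7 CPM in WT replicate 4, against 66.9 to 68.8 CPM. Gabra6, the cerebellar granule cell gene, reached 1.92 CPM in WT replicate 2, against 0 to 0.121 CPM in the other 3 WT libraries.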

How the results depend on the processing

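No p53 target was called under any of the 20 alternatives run, but 17 of these called 0 of all genes, targets or not. Over all genes, edgeR called 0, DESeq2 94 and edgeR without the low-count filter 68, and 0 to 2 genes were called with single libraries left out, the 2 without replicate 4 labelled Nsun5-KO. The median of the 9 targets was 0.10 and ran from 0.09 to 0.14 with single libraries left out, the highest without WT replicate 4. Of 180 values for these 9 targets, 166 kept their sign and 14 turned, all in Cdkn1a, Bax, Trp53inp1 and Phlda3. Without WT replicates 1 and 2, Cdkn1a was at -0.01, Phlda3 at -0.10, Polh at -0.04, Aqp4 at 0.04, Gadd45b at -0.01 and Dnaja4 at -0.10. Without replicates 1 and 3 labelled Nsun5-KO, Rps27l was at 0.03, Aqp4 at 0.09 and Pdgfrb at 0.09. The log2 fold change of Bax was 0.003 on log2(FPKM + 1) and 0.0048 on log2(FPKM + 0.1), and Phlda3 at -0.02 with voom. With single libraries left out, values ran from -0.16 to 0.05 for Bax, -0.07 to 0.09 for Trp53inp1, -0.14 to 0.18 for Phlda3, -0.18 to 0.03 for Aqp4 and -0.63 to 0.21 for Hba-a1, on both sides of 0. The cause of these changes was not tested. Same-numbered libraries of the groups did not deviate together over all genes tested (correlations of -0.21 to 0.06 over 4 pairs). These correlations cannot tell whether such libraries share a litter or a day, and the labels do not say what the number marks. With the replicate number as a block, edgeR called 0 genes and the median of the targets was 0.10. Cdkn1a was then at 0.44 with an SE of 0.13, against an SE of 0.25 without the block. Its unadjusted edgeR p was 0.00819 with the block and 0.159 without it (adjusted p = 0.588 and 0.645). The 95% intervals span 0.956-fold to 1.20-fold for Mdm2 and 0.88-fold to 1.94-fold for Cdkn1a. Eda2r, at 3 to 17 counts, did not pass the low-count filter with all 8 libraries. In most fits with libraries left out it passed and was not called. Its log2 fold change then ran from 0.38 (without WT replicate 1) to 1.0 (without WT replicate 3).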
